A study of Sus scrofa with 35 samples.

Results

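Glycolysis, the pentose phosphate pathway and the handling of pyruvate were described through 39 genes, chosen by symbol, in pig expanded potential stem cells (pEPSCs) and pig 4-cell embryos. All 39 were listed in each of the 3 pEPSC tables, which hold 13293 genes for OTX2 overexpression, 12299 for OTX2 knockout and 12587 for LEUTX overexpression. The embryo table holds 8643 genes and listed 28 of the 39. The 11 not listed there were HK1, GPI, PFKL, PFKFB2, PFKFB3, PFKFB4, ALDOA, PGAM1, ENO1, ENO2 and SLC16A3. Each table kept only genes whose mean over its 6 libraries was about 1 TPM or more, so a gene not listed was under that mean or was filtered in another way. The 39 symbols are all in the RefSeq annotation of Sscrofa11.1, on 15 chromosomes, and LDHB is the symbol of 2 annotated loci there.

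The 6 groups held 3 RNA libraries each. The pEPSC groups were cells that overexpressed OTX2, cells with an OTX2 knockout, cells that overexpressed LEUTX, and wild-type cells, with bulk RNA extracted by Trizol. The embryo groups were 4-cell embryos that overexpressed OTX2 and wild-type 4-cell embryos, each library being a pool of 10 embryos without their zona prepared with a modified Smart-seq2 protocol. The labels give no promoter, dose, culture or animal for any library. The 3 knockout columns share the numbered prefix OTX2-KO1, which the sources used here do not explain, so whether they come from a single knockout line is not known. Thus p-values measure only the spread between these libraries, which may be technical. Both factors carry a homeodomain, OTX2 being known from the epiblast and forebrain and LEUTX from human embryos at genome activation.

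Glycolysis splits glucose into pyruvate in the cytosol. Pyruvate is then reduced to lactate and exported, or carried into mitochondria and oxidised by the pyruvate dehydrogenase complex, which the PDK kinases switch off by phosphorylation. The pentose phosphate pathway branches from glucose 6-phosphate and supplies NADPH and ribose. Pluripotent stem cells are known for strong glycolysis, whereas cleavage-stage mammalian embryos are known to live mainly on pyruvate and lactate.

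Levels below are in TPM, a length-normalised share of a library's transcripts, after each library was rescaled to its nuclear genes. A value with ± is a mean and its SD, with n = 3 in every group. Mitochondrial transcripts took 9.02% to 10.1% of the deposited TPM with OTX2 overexpression, 10.2% to 22.4% in the knockout, 15.9% to 16.1% with LEUTX overexpression and 14.5% to 15.8% in wild-type pEPSCs. They took 51.4% to 51.9% in OTX2-overexpressing embryos and 55.7% to 57.7% in wild-type embryos. Knockout library 1 held the 22.4% and stood apart from knockout libraries 3 and 4 (numbers as in the column names). OTX2 was at 10883 ± 1074 TPM in OTX2-overexpressing pEPSCs, 133 ± 9.92 TPM in knockout pEPSCs, 0.251 ± 0.0971 TPM in LEUTX-overexpressing pEPSCs and 303 ± 4.43 TPM in wild-type pEPSCs, so its RNA was still present in the knockout. Where the edit lies in the gene is not given in the sources used here, so this level does not check the knockout. OTX2 was at 19134 ± 2514 TPM in OTX2-overexpressing embryos and 716 ± 51.8 TPM in wild-type embryos. LEUTX was at 3739 ± 69.8 TPM in LEUTX-overexpressing pEPSCs.

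A fold change is the mean of the altered group minus that of wild type, both on log2(TPM + 1), and a gene passed at a Benjamini-Hochberg adjusted p under 0.05 in limma over all genes tested. The median log2 fold change of all genes tested was 0.12 with OTX2 overexpression, −0.12 in the knockout, 0.12 with LEUTX overexpression and 0.16 in embryos. Under median-ratio scaling these medians were 0.03, −0.003, 0.01 and 0.02, so small changes of the members are to be read against them. The scaling also moved the split of all calls: quantile normalization gave 5189 higher and 5730 lower genes for OTX2 overexpression and 4178 higher and 4730 lower for LEUTX overexpression, against 6017 and 4878, and 5364 and 3456, as reported. For the knockout, median-ratio scaling gave 2975 higher and 2891 lower genes, against 2155 and 3425. The 3 pEPSC comparisons share the same wild-type libraries, so their values are set side by side without any count of overlap.

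The pluripotency factor POU5F1 was at 1540.4 ± 55.9 TPM with OTX2 overexpression, 2195 ± 39.6 TPM in the knockout, 1994 ± 32.5 TPM with LEUTX overexpression and 1836 ± 24.8 TPM in wild-type pEPSCs. NANOG was at 35.9 ± 1.65, 267 ± 40.6, 182 ± 6.92 and 237 ± 13.5 TPM in the same 4 groups. The oocyte factor GDF9 was at 1096 ± 51.4 TPM in OTX2-overexpressing embryos and 867 ± 129 TPM in wild-type embryos. Marker lists of other cell types moved between groups as well. The summed level of 9 pluripotency markers, 8 or 9 of them listed, was 2681 to 2988 TPM with OTX2 overexpression, 4687 to 7443 in the knockout, 3712 to 3804 with LEUTX overexpression and 6263 to 6707 in wild-type pEPSCs. POU5F1, LIN28A and DNMT3B made up most of the wild-type sum. With OTX2 overexpression each listed marker had a mean below wild type. With LEUTX overexpression POU5F1 and TDGF1 were above wild type, and SOX2, NANOG, LIN28A, LIN28B, SALL4 and DNMT3B below. In the knockout POU5F1, NANOG and DNMT3B were above wild type, and SOX2, LIN28A, LIN28B, SALL4 and TDGF1 below. Of 10 trophoblast markers, 4 were listed in the knockout table and summed to 2908 to 3272 TPM in knockout and 651 to 694 TPM in wild-type pEPSCs, while CDX2, GATA2 and GATA3 were not listed. With OTX2 overexpression the same 4 summed to 631 to 695 TPM, and with LEUTX overexpression 3 summed to 561 to 572 TPM. KRT18 alone made up most of the trophoblast sum in each pEPSC group, so these sums mainly follow that gene. Of the other listed trophoblast markers, TFAP2A and TFAP2C had higher means in the knockout than in wild type, and EOMES had a lower one. Of 11 fibroblast and mesenchyme markers, 7 or 8 were listed, at 269 to 282 TPM with OTX2 overexpression, 378 to 455 in the knockout, 45.2 to 51.5 with LEUTX overexpression and 187 to 203 in wild type, with COL3A1, LUM and DCN not listed. Of 8 hypoblast and endoderm markers, 2 to 4 were listed, at 185 to 202, 32.9 to 62.4, 43.9 to 50.1 and 76.6 to 82.8 TPM in the same 4 groups, with SOX17 and PDGFRA not listed. The listed genes differed between tables, so these sums cover different genes. APOA1 made up most of the sum in each group but the knockout, where FOXA2 did. In the knockout the mean of APOA1 was below wild type and that of FOXA2 above, and GATA6 was listed in that table alone. With LEUTX overexpression APOA1 and FOXA2 were both below wild type. With OTX2 overexpression each listed marker of this list was above. Of 6 neuroectoderm markers, 2 to 4 were listed, at 86.1 to 101, 90.3 to 104.6, 300.4 to 317 and 155 to 159 TPM in the same 4 groups, with PAX6 and SOX1 not listed. The neuroectoderm markers did not move together. With LEUTX overexpression the mean of NES was above wild type and that of HESX1 below. With OTX2 overexpression RAX and SIX3 were above wild type, and HESX1 and NES below. In the knockout HESX1 and NES were both below wild type, and RAX and SIX3 were not listed. The part of these markers and of the mitochondrial share in the results below was not tested. In bulk libraries, fewer cells of a type and less RNA per cell cannot be told apart.

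In wild-type pEPSCs the members spanned a wide range of levels. GAPDH, which oxidises glyceraldehyde 3-phosphate, was the most abundant at 5449 ± 135 TPM and ranked 2 among the nuclear genes. ENO1 (enolase) followed at 2201 ± 76.4 TPM, PKM (pyruvate kinase) at 2029 ± 83.6, LDHB (lactate dehydrogenase B) at 1669 ± 47.2 and PGAM1 (phosphoglycerate mutase) at 1090.1 ± 16.5. These 5 were at or above 1000 TPM, 18 lay between 100 and 1000, 14 between 10 and 100, and 2 under 10. The lowest were BPGM (bisphosphoglycerate mutase) at 7.86 ± 1.14 TPM and PFKFB3 at 4.86 ± 0.0854 TPM. Of the 38 pairs of neighbours in this order, 26 had libraries that did not overlap. The other 12 pairs did overlap, among them PGK1 with SLC2A3, HK2 with PFKP, and ADPGK with PGM1.

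**Figure D1:**
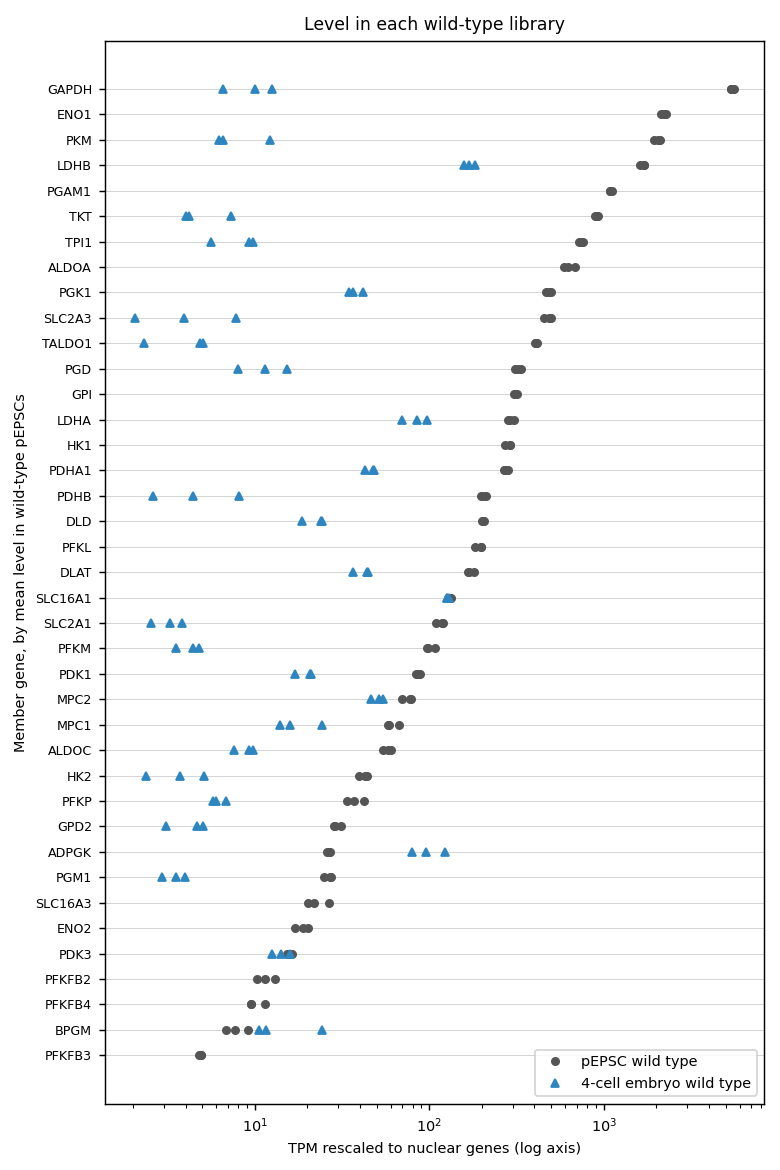
Level of each member in the 3 wild-type pEPSC libraries (grey circles) and the 3 wild-type 4-cell embryo libraries (blue triangles), in TPM rescaled to nuclear genes on a log axis, ordered by the mean in pEPSCs. GAPDH sits at 5449 TPM in pEPSCs and 9.67 TPM in embryos, while SLC16A1 sits near 127 to 129 TPM in both.

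Together the 39 members held 2.00% of the nuclear TPM with OTX2 overexpression, 1.88% in the knockout, 1.49% with LEUTX overexpression and 1.92% in wild-type pEPSCs. Their summed level was 19950.5 ± 258, 18794 ± 173, 14902 ± 66.1 and 19224 ± 249.9 TPM in that order, so the LEUTX-overexpressing libraries were the low ones and the other groups lay close together. Most of the sum is the lower part of glycolysis, which summed to 12776 ± 239.9 TPM with OTX2 overexpression, 10918 ± 92.1 in the knockout, 8079 ± 61.1 with LEUTX overexpression and 11278 ± 173 in wild type.

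With OTX2 overexpression, the members with the lowest log2 fold changes were PDK1 (−2.29), LDHA (−1.39), SLC16A3 (−1.33), SLC16A1 (−0.98) and HK2 (−0.89), and those with the highest were ENO2 (2.05), PFKFB2 (1.44), ADPGK (1.10), TALDO1 (0.96) and BPGM (0.80). Against wild type, 13 of the 39 members rose and 18 fell, while 8 did not pass. Over all genes tested, 45.4% passed as higher and 36.8% as lower, or 82.2% in either direction, so the share of members called (31 of 39) is near the background. The members' median log2 fold change was −0.08, against 0.12 for all genes. All 3 PFKFB genes and all 3 pentose phosphate genes passed as higher. Of the pentose phosphate genes, TKT was at 0.10, below the all-gene median, at −0.0030 under median-ratio scaling and −0.072 in the authors' deposited table (adjusted p = 0.244 there), and it lost its call with the replicate block (adjusted p = 0.0662). Both glucose transporters, all 4 lactate genes and 5 of 8 pyruvate entry genes fell.

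In the OTX2 knockout, 3 of 4 lactate genes, both PDK kinases and ENO2 were lower, and SLC2A1 and the mitochondrial pyruvate carrier were higher. Of the 39 members, 6 rose, 12 fell and 21 did not pass, where 17.6% of all genes passed as higher and 27.9% as lower, or 45.5% in either direction. The members' share was near that background, and their median of −0.11 lay beside −0.12 for all genes. Of the 18 calls, 10 held when each library was left out in turn: SLC2A1, PGAM1, ENO2, LDHA, SLC16A1, SLC16A3, PDK1, PDK3, MPC1 and MPC2. PFKM, PFKP, ALDOA, ALDOC, BPGM, PKM, PDHA1 and PDHB lost theirs without 1 or more of wild-type libraries 1 to 3 and knockout libraries 3 and 4, with adjusted p up to 0.150. Without knockout library 1, 9 members rose and 17 fell, while over all 12257 genes 3501 rose and 4425 fell, against 2155 and 3425 with it. The 8 members gained were TPI1, DLAT and PGD as higher and SLC2A3, HK1, HK2, GPD2 and DLD as lower. Without wild-type library 1, 3 members rose and 8 fell, while over all genes 1444 rose and 2231 fell. The members' counts moved in the same direction as those of all genes in both cases. Under median-ratio scaling 7 rose and 9 fell.

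With LEUTX overexpression, most of the pathway was lower: 25 of the 39 members fell and 8 rose, while 6 did not pass. Over all genes, 42.8% passed as higher, 27.5% as lower and 70.3% in either direction, so the members went lower at a larger share (25 of 39) than genes at large. This share is a description, with no test of the list. The members' median was −0.34, against 0.12 for all genes. In lower glycolysis 6 of 7 fell, in pyruvate entry 6 of 8 and among the hexose phosphate genes 4 of 5. The 8 that rose were SLC2A3, PFKM, PFKFB2, PFKFB4, GPD2, BPGM, SLC16A1 and TKT. With median-ratio scaling 7 members rose and 30 fell, while of all 12546 genes 4459 rose and 4484 fell.

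In the authors' deposited table, at its adjusted p under 0.05, 10 members were higher and 23 lower with OTX2 overexpression, where 38.8% of all genes passed as higher, 42.0% as lower and 80.9% in either direction. In the knockout the authors' deposited table had 6 higher and 9 lower, where the shares of all genes were 24.6%, 24.4% and 49.0%. With LEUTX overexpression the authors' deposited table had 6 higher and 30 lower, beside 33.5%, 35.6% and 69.2%.

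**Figure D2:**
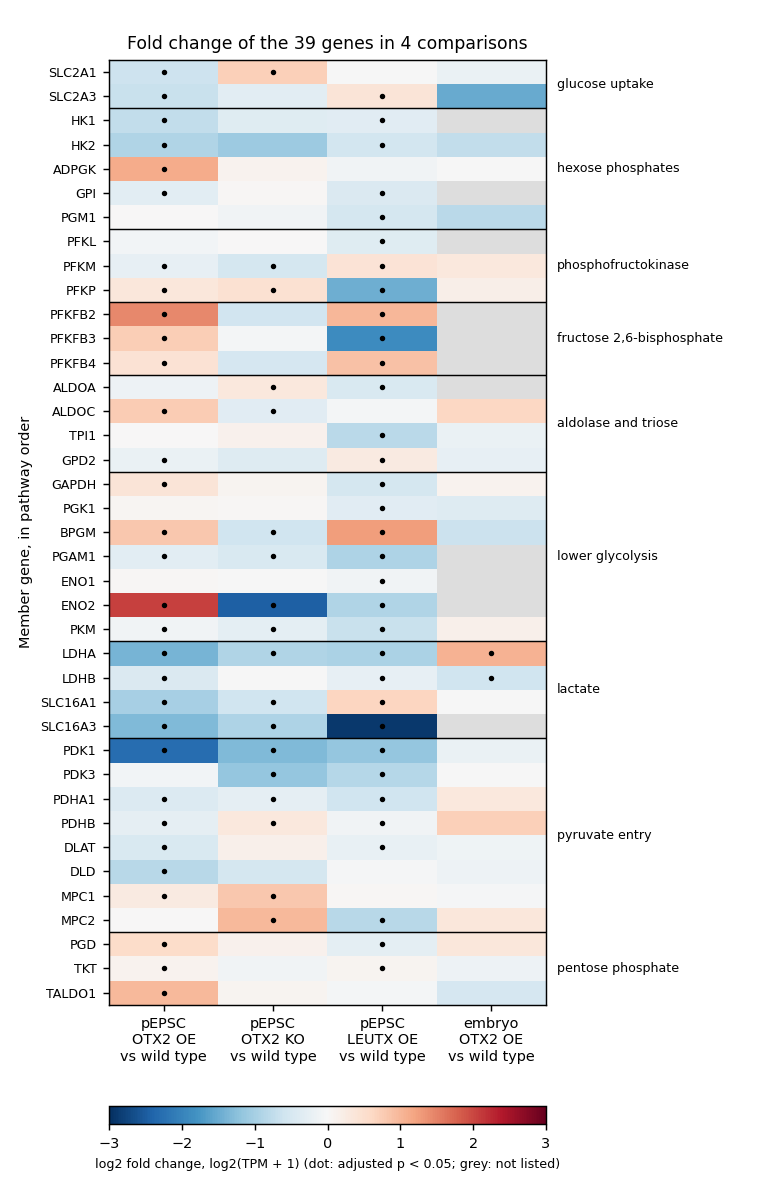
Log2 fold change of each member against wild type, on the log2(TPM + 1) scale, for the 3 pEPSC comparisons and the embryo comparison; dots mark adjusted p under 0.05 and grey marks genes not listed in the embryo table. Blue (lower) fills most of the LEUTX column, where 25 of 39 fell, and only LDHA and LDHB carry dots in embryos; GAPDH with OTX2 overexpression turns to −0.41 under quantile normalization, and TKT with OTX2 or LEUTX overexpression turns to −0.0030 or −0.034 under median-ratio scaling.

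Glucose enters cells through SLC2A1 (GLUT1) and SLC2A3 (GLUT3). SLC2A3, the more abundant in wild-type pEPSCs, was at 292, 304 and 301 TPM with OTX2 overexpression, 302, 433 and 431 in the knockout, 618, 637 and 610.1 with LEUTX overexpression and 451, 483 and 497 in wild type. The LEUTX libraries were the highest, the OTX2-overexpressing ones were low, and knockout library 1 lay with them, below the other knockout libraries. Its log2 fold change was −0.67 (adjusted p = 2.52e-07, SE 0.05) with OTX2 overexpression, 0.38 (adjusted p = 2.89e-05, SE 0.04) with LEUTX overexpression and −0.31 (adjusted p = 0.116, SE 0.15) in the knockout. Without knockout library 1 the knockout value was −0.14 and passed as lower (adjusted p = 0.0429), as it did at −0.31 in 1 fit over all 12 pEPSC libraries (adjusted p = 0.0290). SLC2A1 was at 72.5, 79.6 and 70.7 TPM with OTX2 overexpression, 185, 196 and 193 in the knockout, 114, 118 and 115 with LEUTX overexpression and 119, 109 and 119 in wild type. The knockout libraries were all above the wild-type ones and the OTX2-overexpressing libraries all below. SLC2A1 rose by 0.72 (adjusted p = 0.000699, SE 0.08) in the knockout and changed by −0.63 (adjusted p = 4.91e-06, SE 0.06) with OTX2 overexpression, and with LEUTX overexpression its difference was −0.00 (95% interval −0.11 to 0.10). With LEUTX overexpression SLC2A1 passed as lower under median-ratio scaling (−0.12, adjusted p = 0.0359) and in the authors' deposited table (−0.14, adjusted p = 0.0374). In embryos both were a few TPM: SLC2A3 was at 2.27, 0.537 and 0.133 TPM in OTX2-overexpressing and 2.04, 7.83 and 3.93 TPM in wild-type embryos, overlapping, with adjusted p = 0.0691. Without wild-type embryo library 1 it passed as lower (adjusted p = 0.0369), and without OTX2 library 1 likewise (adjusted p = 0.0239).

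Hexokinase traps glucose as glucose 6-phosphate. HK1, the main form in pEPSCs, was at 171 ± 2.12 TPM with OTX2 overexpression, 224 ± 44.6 in the knockout, 224 ± 3.57 with LEUTX overexpression and 284 ± 10.4 in wild type. It fell with OTX2 overexpression (−0.73, adjusted p = 1.14e-07) and with LEUTX overexpression (−0.34, adjusted p = 3.6e-05), and missed the threshold in the knockout (−0.36, adjusted p = 0.0832). Without knockout library 1 the knockout value of HK1 was −0.19 and passed (adjusted p = 0.0127). HK2, the inducible form, was at 21, 23 and 22.5 TPM with OTX2 overexpression, 6.52, 30.5 and 32.9 in the knockout, 25.6, 30.3 and 28.6 with LEUTX overexpression and 43.7, 39.5 and 42.7 in wild type. All 3 groups lay below every wild-type library, and knockout library 1 was far below the other 2 knockout libraries. Its log2 fold change was −0.89 with OTX2 overexpression (adjusted p = 1.07e-06), −1.10 in the knockout (adjusted p = 0.13) and −0.56 with LEUTX overexpression (adjusted p = 0.000137). Without knockout library 1 it was −0.39 in the knockout and passed (adjusted p = 0.00306). In 1 fit over all 12 pEPSC libraries HK2 no longer passed with OTX2 overexpression (adjusted p = 0.0717) or LEUTX overexpression (adjusted p = 0.276).

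ADPGK, a glucokinase that uses ADP, lies at chromosome 7, 60584038 to 60623898 on Sscrofa11.1. It was at 55.4, 59.4 and 59.4 TPM with OTX2 overexpression, 24.2, 33.4 and 28.9 in the knockout, 25.6, 26.1 and 22.3 with LEUTX overexpression and 26.7, 25.7 and 27.1 in wild type. The OTX2-overexpressing libraries stood above all others, with a log2 fold change of 1.10 (adjusted p = 8.77e-08, SE 0.07), and the other 2 groups did not pass. With LEUTX overexpression ADPGK passed as lower under median-ratio scaling (−0.22, adjusted p = 0.0126) and quantile normalization (−0.28, adjusted p = 0.00348). It also did so in the authors' deposited table (−0.27, adjusted p = 0.0109). GPI, which interconverts glucose 6-phosphate and fructose 6-phosphate, was the most abundant gene of this step, at 255, 248 and 247 TPM with OTX2 overexpression, 312, 323 and 325 in the knockout, 225, 239 and 230.4 with LEUTX overexpression and 305, 309 and 319 in wild type. It fell, with log2 fold changes of −0.31 with OTX2 overexpression and −0.42 with LEUTX overexpression (adjusted p = 3.91e-05 and 7.94e-06). PGM1, which links glycogen to glucose 6-phosphate, passed as lower with LEUTX overexpression, at 18 ± 0.942 TPM against 26.3 ± 1.42 TPM in wild type (log2 change −0.53, adjusted p = 0.00017, SE 0.07).

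Phosphofructokinase commits the sugar to glycolysis, and the 3 subunit genes moved apart. PFKP, the platelet form, at chromosome 10, 67022652 to 67082336, was at 48.5, 47.6 and 45.9 TPM with OTX2 overexpression, 42.7, 58.2 and 54.9 in the knockout, 13.4, 12.5 and 13 with LEUTX overexpression and 33.6, 37.2 and 41.9 in wild type. LEUTX libraries were low and did not overlap any other pEPSC library. The log2 fold change of PFKP was −1.46 (adjusted p = 7.6e-07, SE 0.09) with LEUTX overexpression and 0.33 (adjusted p = 0.00372, SE 0.08) with OTX2 overexpression. In the knockout it was 0.45 (adjusted p = 0.0419, SE 0.15), a call that was lost in turn without wild-type libraries 1, 2 and 3 (adjusted p = 0.150, 0.113 and 0.0577) and without knockout libraries 3 and 4 (adjusted p = 0.120 and 0.113). The PFKP call with OTX2 overexpression was lost in the authors' deposited table (0.17, adjusted p = 0.0709). PFKM, the muscle form, went the other way with LEUTX overexpression, at 131, 137 and 133 TPM against 96.9, 97.6 and 107 TPM in wild type (log2 change 0.41, adjusted p = 6.88e-05, SE 0.05). It fell with OTX2 overexpression, to 89.1, 84.1 and 82.4 TPM (−0.24, adjusted p = 0.00419, SE 0.06), and in the knockout, to 70.1 ± 10.8 TPM (−0.52, adjusted p = 0.0138, SE 0.13), where the call was lost without wild-type library 3 (adjusted p = 0.0589). PFKL, the liver form and the most abundant, was at 185, 192 and 169 TPM with OTX2 overexpression, 182, 204 and 199 in the knockout, 154, 153 and 143 with LEUTX overexpression and 197, 183 and 197 in wild type. It fell with LEUTX overexpression (−0.36, adjusted p = 9.66e-05, SE 0.05). With OTX2 overexpression PFKL did not pass (−0.08, adjusted p = 0.223). It did pass as lower there under median-ratio scaling (−0.18, adjusted p = 0.0122) and in the authors' deposited table (−0.28, adjusted p = 6.69e-06).

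The PFKFB enzymes make and remove fructose 2,6-bisphosphate, the allosteric activator of phosphofructokinase. PFKFB2 was at 29.4, 33.3 and 36.3 TPM with OTX2 overexpression, 4.11, 8.62 and 10.8 in the knockout, 25.4, 24.2 and 22.4 with LEUTX overexpression and 11.5, 10.2 and 13 in wild type. Both overexpressing groups were above every wild-type library, by a log2 fold change of 1.44 (adjusted p = 4.57e-07, SE 0.11) for OTX2 and 1.00 (adjusted p = 1.56e-05, SE 0.10) for LEUTX. PFKFB3 parted the 2 overexpressing groups: it was at 9.06, 9.36 and 7.84 TPM with OTX2 overexpression, 2.88, 5.22 and 6.37 in the knockout, 0.408, 0.905 and 0.511 with LEUTX overexpression and 4.76, 4.91 and 4.9 in wild type. It rose with OTX2 overexpression (0.73, adjusted p = 5.94e-05, SE 0.10) and fell with LEUTX overexpression (−1.88, adjusted p = 2.74e-06, SE 0.14), at levels under 10 TPM throughout. PFKFB4 rose to 14 ± 1.52 TPM with OTX2 overexpression and 19.3 ± 1.17 TPM with LEUTX overexpression, against 10.1 ± 1.14 TPM in wild type (changes of 0.43 and 0.87). None of the 3 passed in the knockout, where PFKFB2 was at −0.59 (adjusted p = 0.145).

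Aldolase splits fructose 1,6-bisphosphate and triose phosphate isomerase (TPI1) converts its products. TPI1, the most abundant gene of this step, was at 778, 733 and 741 TPM with OTX2 overexpression, 814, 809.8 and 793 in the knockout, 421, 432 and 416 with LEUTX overexpression and 723, 759 and 736 in wild type. LEUTX libraries were low, with a log2 fold change of −0.80 (adjusted p = 6.23e-08, SE 0.03), and the other groups did not pass. ALDOA was at 573 ± 33.6 TPM with OTX2 overexpression, 794 ± 84.5 in the knockout, 462 ± 14.8 with LEUTX overexpression and 633 ± 49.4 in wild type. It fell with LEUTX overexpression (−0.45, adjusted p = 6.23e-05) and rose in the knockout (0.32, adjusted p = 0.0338), a call lost without wild-type libraries 1 and 2 and knockout library 3 (adjusted p = 0.113, 0.123 and 0.0605). With OTX2 overexpression ALDOA did not pass (−0.14, adjusted p = 0.0533). It did pass as lower there under median-ratio scaling (−0.24, adjusted p = 0.00325) and in the authors' deposited table (−0.30, adjusted p = 1.31e-06). The same held with the replicate block and without wild-type library 2 or OTX2 library 2 (adjusted p = 0.0478, 0.0107 and 0.0459). ALDOC, the brain form, rose to 98.2 ± 6.07 TPM with OTX2 overexpression against 57.5 ± 3.1 TPM in wild type (0.76, adjusted p = 1.53e-06, SE 0.07). In the knockout ALDOC was at 45.5 ± 1.14 TPM (−0.33, adjusted p = 0.0222, SE 0.09), a call lost without wild-type libraries 1 to 3 or knockout library 3 (adjusted p of 0.0578 to 0.0967). GPD2, the mitochondrial glycerol 3-phosphate dehydrogenase of the glycerophosphate shuttle, rose with LEUTX overexpression (0.27, adjusted p = 0.00319, SE 0.06). That call was lost under quantile normalization (0.14, adjusted p = 0.0558) and in 1 fit over all 12 pEPSC libraries (adjusted p = 0.0505). It was also lost in the authors' deposited table (0.15, adjusted p = 0.0530). The fall of GPD2 with OTX2 overexpression (−0.20, adjusted p = 0.0447) was lost without wild-type library 1 or 3 or OTX2 library 1 or 3, with adjusted p of 0.0552 to 0.162.

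Lower glycolysis turns triose phosphate into pyruvate. GAPDH was at 7259.6, 7234 and 6899 TPM with OTX2 overexpression, 6062, 5701 and 5545 in the knockout, 3835, 3749 and 3744 with LEUTX overexpression and 5362, 5605 and 5381 in wild type. The OTX2-overexpressing libraries were high and the LEUTX ones low. Its log2 fold change was −0.53 (adjusted p = 2.33e-07, SE 0.03) with LEUTX overexpression and 0.39 (adjusted p = 7.88e-07, SE 0.03) with OTX2 overexpression, but −0.41 with OTX2 overexpression under quantile normalization (adjusted p = 9.74e-09), so its direction there depends on the scaling. No other setting tried turned it, and in the authors' deposited table it was 0.20 with OTX2 overexpression (adjusted p = 0.00137). PGAM1 was at 873, 898 and 871 TPM with OTX2 overexpression, 687, 820.4 and 875 in the knockout, 555, 576 and 577 with LEUTX overexpression and 1081, 1109 and 1079.7 in wild type. It was below every wild-type library in all 3 groups, with log2 fold changes of −0.31 (adjusted p = 9.08e-06, SE 0.03) with OTX2 overexpression, −0.46 (adjusted p = 0.0077, SE 0.10) in the knockout and −0.94 (adjusted p = 1.78e-08, SE 0.03) with LEUTX overexpression. PGK1, which makes ATP in the next step, fell with LEUTX overexpression to 379.8 ± 4.16 TPM against 482 ± 16.2 TPM in wild type (−0.34, adjusted p = 1.94e-05, SE 0.03). PKM was at 1899 ± 66.9 TPM with OTX2 overexpression, 1655 ± 164 in the knockout, 1279 ± 24.3 with LEUTX overexpression and 2029 ± 83.6 in wild type, with a log2 fold change of −0.66 (adjusted p = 3.22e-07, SE 0.03) for LEUTX overexpression. Its smaller falls with OTX2 overexpression (−0.10, adjusted p = 0.0479) and in the knockout (−0.30, adjusted p = 0.0273) were lost without several single libraries. For OTX2 overexpression these were wild-type libraries 1 and 3 and OTX2 libraries 1 to 3 (adjusted p of 0.0575 to 0.162), and for the knockout wild-type libraries 1 to 3 (adjusted p of 0.0596 to 0.101).

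ENO2, the neuronal enolase, lies at chromosome 5, 63799927 to 63809067. It was at 77.9, 78.3 and 83.9 TPM with OTX2 overexpression, 2.72, 3.19 and 2.01 in the knockout, 10.7, 9.03 and 8.72 with LEUTX overexpression and 16.9, 20.2 and 18.9 in wild type. No library of 1 group overlapped another group. ENO2 rose by 2.05 (adjusted p = 4.62e-09, SE 0.08) with OTX2 overexpression and its log2 fold change was −2.44 (adjusted p = 0.000104, SE 0.16) in the knockout and −0.91 (adjusted p = 4.02e-05, SE 0.10) with LEUTX overexpression. TPI1, on the same chromosome at 63839473 to 63842853, had log2 fold changes of 0.02, 0.12 and −0.80 in the same comparisons. ENO1, more abundant by far, was at 2272 ± 13.2 TPM with OTX2 overexpression, 2196 ± 102 in the knockout, 2045 ± 20.4 with LEUTX overexpression and 2201 ± 76.4 in wild type, and passed with LEUTX overexpression (−0.11, adjusted p = 0.0118). BPGM, which makes 2,3-bisphosphoglycerate, was at 14, 13.2 and 16.1 TPM with OTX2 overexpression, 4.49, 5.06 and 4.99 in the knockout, 19.4, 20.3 and 20.6 with LEUTX overexpression and 9.09, 6.84 and 7.67 in wild type. It rose with LEUTX (1.26, adjusted p = 5.08e-06, SE 0.10) and OTX2 overexpression (0.80, adjusted p = 8.04e-05, SE 0.12) and was lower in the knockout (−0.59, adjusted p = 0.0118, SE 0.14), a call lost without wild-type library 1 (adjusted p = 0.0580).

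Of the 4 lactate genes, 4 fell with OTX2 overexpression, 3 in the knockout and 3 with LEUTX overexpression, where 36.8%, 27.9% and 27.5% of all genes passed as lower. LDHA, the isoform of lactate-producing tissues, at chromosome 2, 40814163 to 40827284, was at 108, 126 and 102 TPM with OTX2 overexpression, 194, 141 and 137 in the knockout, 148, 153 and 154 with LEUTX overexpression and 284, 305 and 291 in wild type. All 9 libraries of the 3 groups lay below all 3 wild-type libraries. The log2 fold change of LDHA was −1.39 (adjusted p = 4e-08, SE 0.07) with OTX2 overexpression, −0.91 (adjusted p = 0.00209, SE 0.14) in the knockout and −0.94 (adjusted p = 7.18e-08, SE 0.04) with LEUTX overexpression. LDHB was at 1246, 1223 and 1219 TPM with OTX2 overexpression, 1817, 1613 and 1585 in the knockout, 1381, 1386 and 1438 with LEUTX overexpression and 1692, 1701 and 1615 in wild type. It fell in both overexpressing groups (−0.44 and −0.25, adjusted p = 5.71e-07 and 7.87e-05). LDHB is annotated at 2 loci, chromosome 2, 12988754 to 12990033, and chromosome 5, 51810932 to 51831218, and the tables do not say which one its row counts, or whether reads were split.

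SLC16A1 (MCT1) and SLC16A3 (MCT4) carry lactate and pyruvate across the plasma membrane. SLC16A1 was at 68, 67.9 and 59.1 TPM with OTX2 overexpression, 71.3, 88.9 and 95.4 in the knockout, 204, 201 and 203 with LEUTX overexpression and 129, 127 and 132 in wild type. LEUTX libraries were above and both OTX2 groups below every wild-type library. The log2 fold change was −0.98 (adjusted p = 1.88e-07, SE 0.06) with OTX2 overexpression, −0.61 (adjusted p = 0.00595, SE 0.12) in the knockout and 0.64 (adjusted p = 4.34e-07, SE 0.03) with LEUTX overexpression. SLC16A3 was at 9.51, 8.88 and 7.01 TPM with OTX2 overexpression, 10.3, 12.4 and 11.7 in the knockout, 2.11, 2.4 and 1.98 with LEUTX overexpression and 21.7, 20.1 and 26.4 in wild type. It was lower in all 3 groups, with log2 fold changes of −1.33 (adjusted p = 3.82e-06, SE 0.13), −0.92 (adjusted p = 0.00228, SE 0.14) and −2.90 (adjusted p = 7.1e-08, SE 0.12) in the same order, the last being the lowest of any member in the 3 pEPSC comparisons against wild type.

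At pyruvate entry, PDK1, a kinase that inactivates pyruvate dehydrogenase, at chromosome 15, 78608394 to 78650958, was at 15.8, 18 and 16.7 TPM with OTX2 overexpression, 31.7, 36.3 and 33.4 in the knockout, 38.3, 37.1 and 38.4 with LEUTX overexpression and 86.4, 83.9 and 88.5 in wild type. All 9 libraries were below the wild-type ones. The log2 fold change was −2.29 (adjusted p = 1.16e-09, SE 0.07) with OTX2 overexpression, −1.33 (adjusted p = 0.000144, SE 0.09) in the knockout and −1.16 (adjusted p = 7.28e-08, SE 0.05) with LEUTX overexpression. PDK3, another kinase of this kind, was at 14.6, 15.5 and 14.2 TPM with OTX2 overexpression, 4.69, 7.28 and 7.8 in the knockout, 8.45, 8.64 and 7.58 with LEUTX overexpression and 15.4, 15.2 and 16.4 in wild type. It was lower in the knockout (−1.16, adjusted p = 0.00243, SE 0.18) and with LEUTX overexpression (−0.85, adjusted p = 1.69e-05, SE 0.08), while the OTX2-overexpressing libraries overlapped wild type (adjusted p = 0.391).

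The pyruvate dehydrogenase complex itself was lower with OTX2 overexpression in each of the 4 member genes. PDHA1, the catalytic alpha subunit and the most abundant gene of this step, was at 199, 206 and 208 TPM with OTX2 overexpression, 206, 233 and 242 in the knockout, 185, 177 and 179.7 with LEUTX overexpression and 273, 282 and 268 in wild type. Its log2 fold change was −0.42 (adjusted p = 5.72e-06, SE 0.04) with OTX2 overexpression and −0.60 (adjusted p = 7.54e-07, SE 0.04) with LEUTX overexpression. PDHB, the beta subunit, changed by −0.28, DLAT, the acetyltransferase core, by −0.45 and DLD, the dihydrolipoamide dehydrogenase, by −0.83 with OTX2 overexpression (adjusted p = 0.000305, 7.83e-06 and 1.73e-07). In the knockout PDHA1 fell (−0.28) and PDHB rose (0.32), but PDHA1 lost its call without wild-type libraries 1 to 3 or knockout library 3 (adjusted p of 0.0587 to 0.118) and PDHB without wild-type library 1 or 3 (adjusted p = 0.0610 and 0.0606). With LEUTX overexpression DLAT fell (−0.23) and PDHB was at −0.11 (adjusted p = 0.0202), which was lost without wild-type library 1 or 2 or LEUTX library 1 or 2 (adjusted p of 0.0513 to 0.0713).

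MPC1 and MPC2 form the carrier that takes pyruvate into mitochondria. MPC2 was at 77.1, 72.9 and 78.3 TPM with OTX2 overexpression, 204, 137 and 119 in the knockout, 39.7, 40.5 and 44.4 with LEUTX overexpression and 78.4, 77.8 and 69.4 in wild type. Knockout libraries were high, with knockout library 1 the highest, and LEUTX libraries low. The log2 fold change of MPC2 was 0.98 (adjusted p = 0.00589, SE 0.19) in the knockout and −0.84 (adjusted p = 4.56e-06, SE 0.07) with LEUTX overexpression. MPC1 was at 116, 98.1 and 108 TPM in the knockout and 58.7, 67.3 and 58.1 TPM in wild type, without overlap (0.80, adjusted p = 0.00125, SE 0.11). It also rose with OTX2 overexpression (0.28, adjusted p = 0.00345, SE 0.07). That call was lost under median-ratio scaling (0.18, adjusted p = 0.0537) and in the authors' deposited table (0.092, adjusted p = 0.331).

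In the pentose phosphate branch, TALDO1 (transaldolase) was at 786, 778 and 827 TPM with OTX2 overexpression, 467, 427 and 398 in the knockout, 399, 394 and 385 with LEUTX overexpression and 403, 408 and 415 in wild type. Only the OTX2-overexpressing libraries stood apart as high among these 4 groups, with a log2 fold change of 0.96 (adjusted p = 6.22e-09, SE 0.04). PGD, an NADPH-producing enzyme of the oxidative arm, rose to 477 ± 11.4 TPM with OTX2 overexpression against 323 ± 12.9 TPM in wild type (0.56, adjusted p = 6.27e-07, SE 0.04). It fell with LEUTX overexpression to 264 ± 1.98 TPM (−0.29, adjusted p = 0.000103, SE 0.04). TKT (transketolase), the most abundant gene of the branch, was at 977, 976 and 961 TPM with OTX2 overexpression, 823, 881 and 817 in the knockout, 960.0, 972 and 965 with LEUTX overexpression and 893, 921 and 910.2 in wild type. It passed as higher with OTX2 (0.10, adjusted p = 0.0189) and LEUTX overexpression (0.09, adjusted p = 0.0151), but under median-ratio scaling it was −0.0030 and −0.034. Without wild-type library 1 neither TKT call held (adjusted p = 0.0877 and 0.0610). The OTX2 call was also lost without OTX2 library 1 or 2 (adjusted p = 0.0617 and 0.0526), and the LEUTX call without LEUTX library 2 (adjusted p = 0.0579).

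Where genes code for forms of the same step, the share of each form was described, and differences in these shares were not tested. LDHA made up 8.32% ± 0.867 of LDHA plus LDHB with OTX2 overexpression, 8.56% ± 0.949 in the knockout, 9.78% ± 0.147 with LEUTX overexpression and 14.9% ± 0.503 in wild-type pEPSCs. PDK1 made up 53.3% ± 1.04 of PDK1 plus PDK3 with OTX2 overexpression, and 83.8% ± 3.05, 82.2% ± 1.22 and 84.6% ± 0.232 in knockout, LEUTX-overexpressing and wild-type pEPSCs. PFKP made up 4.38% ± 0.202 of the 3 phosphofructokinase subunits with LEUTX overexpression and 11.4% ± 0.976 in wild type, while PFKM made up 45% ± 1.08 and 30.4% ± 0.761. SLC16A1 made up 98.9% ± 0.11 of the 2 transporters with LEUTX overexpression and 85.1% ± 1.56 in wild type. SLC2A1 made up 33.4% ± 3.99 of the 2 glucose transporters in the knockout and 19.5% ± 1.23 in wild type. ENO1 stayed at or above 96.4% of the enolase sum in every pEPSC library. HK1 made up 91.3% ± 4.41 of the hexokinase pair in the knockout and 87.1% ± 0.926 in wild type, and the knockout mean carries library 1, at 96.4%. ALDOA made up 85.4% ± 0.857 of the aldolase pair with OTX2 overexpression and 91.6% ± 0.81 in wild type.

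**Figure D3:**
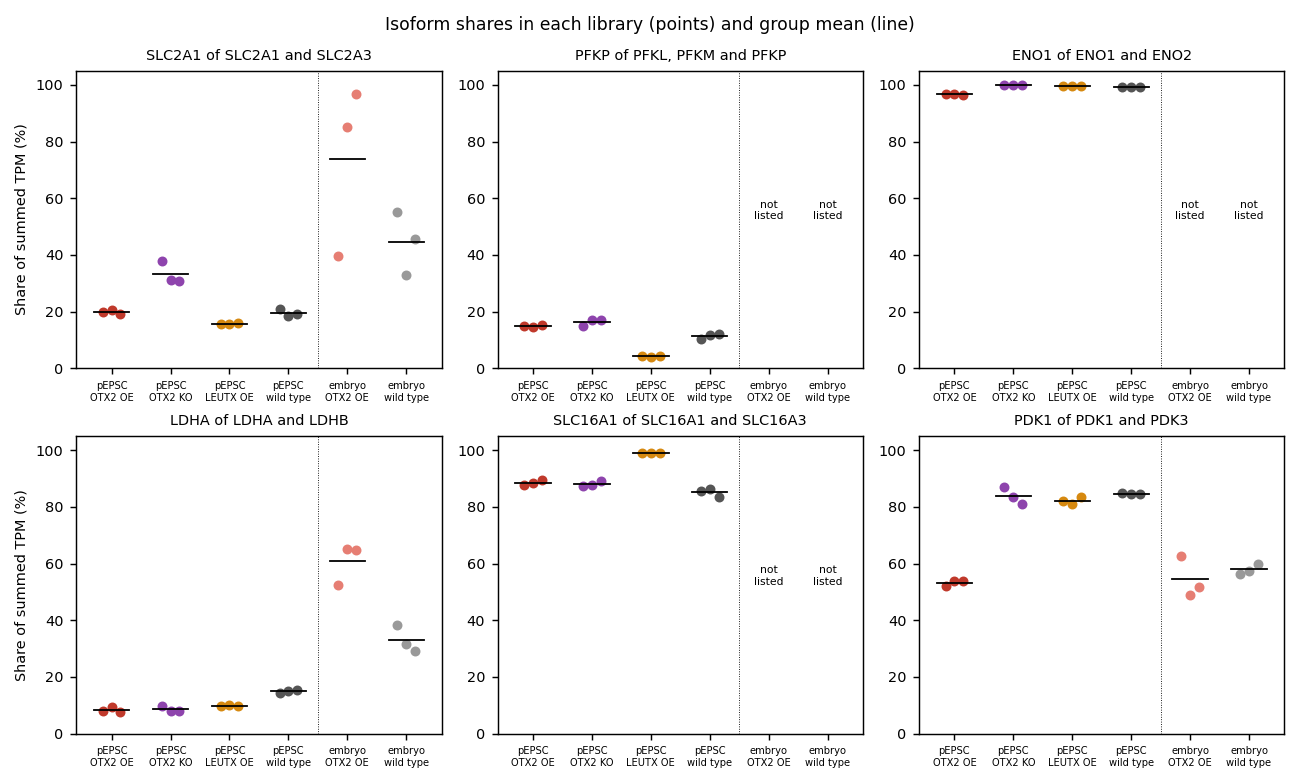
Share of 1 form in the summed TPM of its step (%), in each library (points) with the group mean (line), for 6 pairs or triplets of genes in 4 pEPSC and 2 embryo groups. The LDHA share is 14.9% in wild-type pEPSCs and below 10% in the other pEPSC groups, but 60.7% in OTX2-overexpressing and 33.1% in wild-type embryos; the PDK1 share drops to 53.3% with OTX2 overexpression in pEPSCs.

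The 2 overexpressing pEPSC groups were compared directly, in 1 fit over the 12 pEPSC libraries. LEUTX-overexpressing cells had lower levels of 6 of 7 lower glycolysis genes, TALDO1, PGD and PFKFB3 than OTX2-overexpressing cells. The remaining lower glycolysis gene, BPGM, was higher, as were the glucose transporters, SLC16A1 and PDK1. Of the 39 members, 13 were higher with LEUTX and 21 lower, and 5 did not pass. Over all genes 40.1% passed as higher, 31.1% as lower and 71.2% in either direction. The members' median was −0.25, against 0.10 for all genes. ENO2 had the lowest difference at −2.96 (adjusted p = 1.65e-09, SE 0.13), followed by PFKFB3 at −2.61 (adjusted p = 2.16e-07, SE 0.20) and PFKP at −1.79 (adjusted p = 4.44e-08, SE 0.12). SLC16A3 was at −1.57 and ADPGK at −1.20. On the other side SLC16A1 was at 1.63 (adjusted p = 2.19e-08, SE 0.10), PDK1 at 1.13 (adjusted p = 8.58e-08, SE 0.08) and SLC2A3 at 1.05 (adjusted p = 3.39e-06, SE 0.11). GAPDH was lower with LEUTX, at −0.92 (adjusted p = 3.32e-09, SE 0.04). The members that did not pass were HK2, GPI, PFKFB2, DLAT and TKT. For TKT the 95% interval was −0.11 to 0.09. HK2, GPI, PFKFB2 and DLAT passed once knockout library 1 was left out of the shared spread, with adjusted p = 0.00110, 0.0145, 0.00174 and 0.00027. PFKFB4, PDHA1 and PDHB passed (adjusted p = 0.0297, 0.0226 and 0.0227) but each lost its call without some single library. For PFKFB4 these were OTX2 libraries 2 and 3 and LEUTX libraries 1 and 2 (adjusted p of 0.0656 to 0.0962), for PDHA1 OTX2 libraries 2 and 3 and LEUTX libraries 2 and 3 (0.0582 to 0.0708), and for PDHB OTX2 library 2 and LEUTX libraries 1 and 3 (0.0544 to 0.0896).

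**Figure D4:**
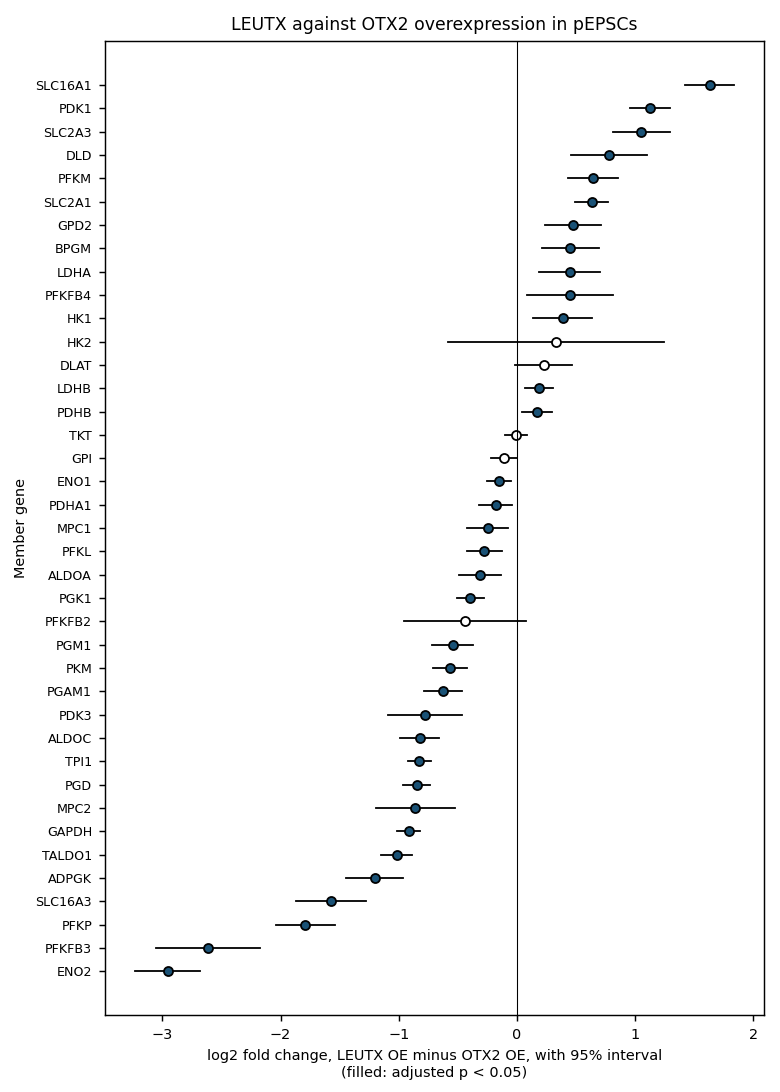
Log2 fold change of each member, LEUTX-overexpressing minus OTX2-overexpressing pEPSCs, on the log2(TPM + 1) scale with its 95% interval from limma; filled points passed at adjusted p under 0.05. ENO2 lies lowest at −2.96 and SLC16A1 highest at 1.63, and 34 of the 39 points are filled.

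In 4-cell embryos OTX2 overexpression left most of the listed members without a call. Of the 28 listed, LDHA rose, LDHB fell and 26 did not pass, where 7.65% of all genes passed as higher, 8.59% as lower and 16.2% in either direction. At an unadjusted p under 0.05 there were 7 of the 28. By adjusted p under 0.05, the authors' deposited table called 1 member higher and 4 lower (SLC2A3, HK2, PGM1 and LDHB), where 10.8% of all genes passed there as higher, 16.6% as lower and 27.4% in either direction. LDHA was at 111, 216 and 218 TPM in OTX2-overexpressing and 97.3, 84.6 and 70.1 TPM in wild-type embryos. The groups did not overlap, but OTX2 library 1 lay near wild type and the other OTX2 libraries well above. Its log2 fold change was 1.05 (adjusted p = 0.0328, SE 0.27), a call lost without wild-type library 2 or 3 or OTX2 library 2 or 3 (adjusted p = 0.0981, 0.101, 0.127 and 0.108). LDHB was at 101, 116 and 118 TPM in OTX2-overexpressing and 157, 182 and 169 TPM in wild-type embryos, without overlap. Its log2 fold change was −0.60 (adjusted p = 0.0154, SE 0.12), lost without wild-type library 2 or OTX2 library 2 (adjusted p = 0.0713 and 0.0645). The LDHA share of the pair was 52.3%, 65.1% and 64.8% in OTX2-overexpressing and 38.2%, 31.8% and 29.3% in wild-type embryos. Under TPM as deposited 2 members rose and 1 fell, and under median-ratio scaling 1 rose and 2 fell. The mitochondrial share was lower in OTX2-overexpressing embryos (51.4% to 51.9%) than in wild-type embryos (55.7% to 57.7%), and the summed level of 11 listed oocyte and 4-cell markers was 7417 to 7948 TPM against 5539 to 6514 TPM. TFAP2C, the only one of 10 trophoblast markers listed, was at 39.2 to 62.7 TPM in OTX2-overexpressing and 325 to 802 TPM in wild-type embryos. LEUTX was at 166, 27.4 and 25.8 TPM in OTX2-overexpressing and 779, 1254 and 1485 TPM in wild-type embryos. NANOG was at 8.6, 0.207 and 0 TPM in OTX2-overexpressing and 37.2, 100.5 and 62.4 TPM in wild-type embryos. OTX2 library 1, the one nearest wild type in LDHA, was also the nearest in LEUTX and NANOG. The part of these in the LDHA and LDHB values was not tested.

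The effect of OTX2 overexpression differed between embryos and pEPSCs for 11 of the 28 members, by the test of the difference itself. The embryo effect lay above the pEPSC effect for LDHA, PDK1, SLC16A1, PDHA1, PFKM and DLAT, and below it for TALDO1, BPGM, ADPGK, PGM1 and PGK1. Over all genes 41.4% passed as higher, 21.1% as lower and 62.5% in either direction, so 11 of 28 is below that background. LDHA changed by 1.05 in embryos and −1.39 in pEPSCs, a difference of 2.44 (adjusted p = 3.5e-05, SE 0.31). PDK1 was at 19.5, 16 and 15.4 TPM in OTX2-overexpressing and 20.6, 17.1 and 20.9 TPM in wild-type embryos, which overlap, and its effects differed by 2.099 (adjusted p = 1.02e-06, SE 0.17). SLC16A1 was at 135, 132 and 113 TPM in OTX2-overexpressing and 129, 126 and 125 TPM in wild-type embryos, so its embryo value was −0.01, and its effects differed by 0.98 (adjusted p = 4.87e-05, SE 0.13). PDHA1 was at 56.6, 56 and 59.4 TPM in OTX2-overexpressing and 42.5, 47.7 and 48.2 TPM in wild-type embryos (0.31, adjusted p = 0.122), and its effects differed by 0.73 (adjusted p = 0.000161, SE 0.11).

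On the lower side, ADPGK was at 85.7, 97.4 and 109 TPM in OTX2-overexpressing and 95.2, 79.4 and 122 TPM in wild-type embryos, overlapping, and its effects differed by −1.11 (adjusted p = 0.00043, SE 0.20). TALDO1 was at 1.45, 1.68 and 5.1 TPM in OTX2-overexpressing and 2.3, 4.81 and 5.01 TPM in wild-type embryos, a few TPM in each, and its effects differed by −1.47 (adjusted p = 0.00989, SE 0.43). BPGM was at 6.23, 13.5 and 8.22 TPM in OTX2-overexpressing and 11.5, 10.6 and 24.2 TPM in wild-type embryos, and its effects differed by −1.44 (adjusted p = 0.00924, SE 0.41). PGM1 was at 0.948, 1.64 and 2.14 TPM in OTX2-overexpressing and 2.94, 3.53 and 3.99 TPM in wild-type embryos, and its effects differed by −0.84 (adjusted p = 0.00719, SE 0.23). Those 8 differences held under every alternative tried, each library left out included. PFKM was at 4.28, 6.92 and 5.56 TPM in OTX2-overexpressing and 4.75, 3.52 and 4.41 TPM in wild-type embryos. PGK1 was at 24, 32 and 29.9 TPM in OTX2-overexpressing and 36.3, 34.6 and 41.5 TPM in wild-type embryos, and DLAT at 38.2, 38.1 and 37.5 TPM in OTX2-overexpressing and 44.4, 43.9 and 36.5 TPM in wild-type embryos. These 3 passed by less (adjusted p = 0.0323, 0.031 and 0.0412). In pEPSCs PGM1 was at 26.3, 26.9 and 26.7 TPM with OTX2 overexpression and 24.7, 27.5 and 26.8 TPM in wild type. PGK1 was at 495, 475 and 528 TPM with OTX2 overexpression and 483, 497 and 465 TPM in wild type there, and DLAT at 126, 124 and 126 TPM with OTX2 overexpression and 167, 169 and 180.4 TPM in wild type. PFKM lost its call without wild-type pEPSC libraries 1 to 3, OTX2 pEPSC libraries 2 and 3, wild-type embryo library 2 or OTX2 embryo library 2 (adjusted p up to 0.0761). PGK1 lost it without wild-type pEPSC libraries 1 and 3, OTX2 pEPSC libraries 1 and 3 or wild-type embryo library 3 (up to 0.0727), and DLAT lost it without each of the 6 pEPSC libraries in turn, wild-type embryo library 3 or OTX2 embryo library 2 (up to 0.0981). The scaling moved these 3 as well: under median-ratio scaling the difference was 0.035 for DLAT (adjusted p = 0.852) and 0.28 for PFKM (adjusted p = 0.245), and under quantile normalization 0.19 for DLAT (adjusted p = 0.252) and 0.49 for PFKM (adjusted p = 0.0678). PGK1 was at −0.36 with TPM as deposited (adjusted p = 0.0547). With the replicate block PFKM, PGK1 and DLAT all lost their calls (adjusted p = 0.0836, 0.0526 and 0.0764). The members' median difference was −0.10, against 0.33 for all genes, and under median-ratio scaling the all-gene median was 0.06, with 4 members higher and 8 lower.

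Wild-type pEPSC and embryo levels were set side by side without a test, since cell or embryo, RNA amount and library protocol cannot be told apart. Of the 28 members listed in both, 26 had the higher mean in pEPSCs. The ratio of pEPSC to embryo was 564 for GAPDH, 243 for PKM, 176 for TKT, 104 for SLC2A3 and 101 for TALDO1. It was 9.85 for LDHB, 3.49 for LDHA, 1.10 for PDK3 and 1.02 for SLC16A1. ADPGK went the other way, with 26.5 ± 0.679 TPM in pEPSCs and 98.9 ± 21.6 TPM in embryos, as did BPGM, with 7.86 ± 1.14 and 15.4 ± 7.62 TPM. In wild-type embryos LDHB led at 169 ± 12.2 TPM, followed by SLC16A1 at 127 ± 1.86, ADPGK and LDHA at 84 ± 13.6. Only LDHB and SLC16A1 reached 100 TPM there, 12 lay between 10 and 100, and 14 were under 10. The 28 members summed to 0.0882% of the nuclear TPM in OTX2-overexpressing and 0.0835% in wild-type embryos, and to 1.44% in wild-type pEPSCs.

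Other genes around the pathway were described by counts, beside the share of all genes that passed. Among 47 further pathway enzymes, 37 were tested with OTX2 overexpression, of which 21 rose and 9 fell (median 0.56), where 45.4% of all genes passed as higher and 36.8% as lower. PGAM2, a muscle phosphoglycerate mutase, was at 60.5 ± 2.97 TPM with OTX2 overexpression and 2.03 ± 0.624 TPM in wild type. G6PC3, a glucose 6-phosphatase, was at 139 ± 5.22 and 41.9 ± 1.02 TPM, HK3 at 12.1 ± 0.215 and 0.833 ± 0.144 TPM, and PDP1, the phosphatase that reactivates pyruvate dehydrogenase, at 9.52 ± 0.757 and 39.1 ± 1.18 TPM in the same order. In the knockout, where 17.6% of all genes passed as higher and 27.9% as lower, 12 of 34 rose and 6 fell (median 0.08), among them BSG, the chaperone of SLC16A transporters, at 530.2 ± 46 TPM in knockout and 354 ± 1.07 TPM in wild-type cells. With LEUTX overexpression, beside 42.8% of all genes higher and 27.5% lower, 16 of 36 rose and 9 fell (median 0.17), and PCK2, the mitochondrial PEP carboxykinase, fell to 65.5 ± 2.27 TPM against 136 ± 2.31 TPM in wild type. In embryos, where 7.65% of all genes passed as higher and 8.59% as lower, 3 of 17 rose: RPIA, LDHC and PDHX, at log2 fold changes of 1.02, 0.89 and 0.58.

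Of 21 regulators of the pathway, 20 were tested with OTX2 overexpression, 7 rose and 10 fell (median −0.19). For these and the hypoxia targets, the share of all genes called in either direction was 82.2% with OTX2 overexpression, 45.5% in the knockout, 70.3% with LEUTX overexpression and 16.2% in embryos. HIF1A, the oxygen-regulated factor that drives many glycolytic genes, was at 127 ± 3.62 TPM with OTX2 overexpression and 268 ± 10.8 TPM in wild type. It was at 151 ± 29.1 TPM in the knockout and 193 ± 3.86 TPM with LEUTX overexpression, and passed as lower in all 3 (log2 fold change −1.07, −0.84 and −0.47). With OTX2 overexpression the regulators of smallest adjusted p were LIN28B (−1.74), EGLN3 (−2.01), HIF1A and LIN28A (−1.24). In the knockout they were HIF1A, ESRRB (−1.18), VHL (−0.71) and MXI1 (−0.98). With LEUTX overexpression they were LIN28A (−1.55), LIN28B (−0.65), MXI1 (1.45) and HIF1A. The part of any regulator in the member values was not tested. In the knockout 2 of 18 regulators rose and 5 fell (median −0.31), and with LEUTX overexpression 7 of 18 rose and 6 fell (median −0.04). In embryos 1 of 15 rose and 2 fell (median 0.25): MYC was at 1.03 ± 0.787 TPM in OTX2-overexpressing and 20.2 ± 10.5 TPM in wild-type embryos, and MYCN at 0.968 ± 0.772 and 21.8 ± 7.82 TPM. Of 16 hypoxia targets outside glycolysis, 14 were tested in each pEPSC comparison. With OTX2 overexpression 7 rose and 6 fell (median 0.10), in the knockout 2 rose and 6 fell (median −0.55), and with LEUTX overexpression 5 rose and 2 fell (median 0.18). Those of smallest adjusted p with OTX2 overexpression were NDRG1 (3.78), ERO1A (−1.68), BNIP3 (1.32) and ANKRD37 (−1.63). In the knockout they were BNIP3L (−1.07), LOX (−1.42), P4HA1 (−0.59) and ANKRD37 (−0.87). With LEUTX overexpression they were MIF (0.44), BNIP3L (0.61), DDIT4 (0.98) and BNIP3 (−0.52). In embryos 1 of 9, KDM3A, fell (−0.74), with a median of −0.01.

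Of the glycogen metabolism genes, 8 of 9 rose and 1 fell with LEUTX overexpression, with a median of 0.77 against 0.12 for all genes, of which 42.8% passed as higher and 27.5% as lower. PYGL, a glycogen phosphorylase, was at 88.9 ± 3.9 TPM with LEUTX overexpression and 44.2 ± 0.14 TPM in wild type. GYG1 (glycogenin) was at 45.6 ± 1.62 TPM with LEUTX overexpression and 20 ± 2.08 TPM in wild type. With OTX2 overexpression 5 of 9 rose and 2 fell (median 0.56), beside 45.4% and 36.8% of all genes, and in the knockout 1 rose and 2 fell (median −0.09), beside 17.6% and 27.9%. In embryos 0 of 7 passed in limma, where 16.2% of all genes passed in either direction, with 1 at an unadjusted p under 0.05 (median 0.05).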

How the data were processed

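Of the 35 samples in the series, 18 RNA libraries were used here. The other 17, titled as ATAC-seq, ChIP-seq or pEPSC single-cell samples, were not used. Per the file headers, the deposited values are TPM, 1 table per comparison, after the authors left out genes of low mean. The authors' deposited tables also hold a log2 fold change and an adjusted p-value per gene, under column names of a DESeq2 results table. Per the submitters' processing notes, the build was Sscrofa11.1 and the tools included STAR 2.7.3, Trim Galore 0.6.6, featureCounts 2.0.0, StringTie 2.1.4 and DESeq2, whose part in each table is not stated. TPM holds no read depth, so no counting interval is given.

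Each library was rescaled to its nuclear genes by removing mitochondrial TPM. Differences were tested with limma 3.58.1 (R 4.3.3, trended and robust empirical Bayes) on log2(TPM + 1) for genes that reached 1 TPM in 3 or more libraries, with Benjamini-Hochberg adjustment over all genes of the fit and a threshold of 0.05. The direct and the embryo against pEPSC contrasts used 1 fit over 12 libraries each. The code was tested on simulated data. Library values were given for up to 8 members per comparison with the largest change among those that passed without overlap and reached 5 TPM, for the most abundant member of each step, and for members whose embryo and pEPSC effects differed. The members, lists and rules were chosen with earlier results of these data known. Knockout columns are numbered 1, 3 and 4, unlike the sample titles, and were assigned by group. The embryo table has 10 gene names turned into dates, which no member matches. Other scalings, a pseudocount of 0.1, no filter, a replicate block, a joint fit, the authors' p-values and leaving out each library were tried. Symbols were matched to RefSeq of the same build; no sequences are shown.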

Additional observations from a re-analysis of the deposited data

Results flagged for a closer look

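The effect of OTX2 overexpression differed between 4-cell embryos and pEPSCs in 11 of the 28 members tested, by the interaction term in limma at adjusted p under 0.05. Over all genes 62.5% passed in either direction, so the members' share is below that background. Each value is the embryo effect minus the pEPSC effect on the log2(TPM + 1) scale, followed by both effects. LDHA differed by 2.44, with 1.05 in embryos and −1.39 in pEPSCs. PDK1 differed by 2.099, with −0.19 in embryos and −2.29 in pEPSCs. SLC16A1 differed by 0.98, with −0.01 and −0.98, PDHA1 by 0.73, with 0.31 and −0.42, PFKM by 0.56, with 0.32 and −0.24, and DLAT by 0.33, with −0.13 and −0.45. TALDO1 differed by −1.47, with −0.51 in embryos and 0.96 in pEPSCs. BPGM differed by −1.44, with −0.64 and 0.80, ADPGK by −1.11, with −0.01 and 1.10, PGM1 by −0.84, with −0.82 and 0.02, and PGK1 by −0.44, with −0.38 and 0.05. The PFKM, PGK1 and DLAT differences lost their calls under several settings, among them the replicate block in limma (adjusted p = 0.0836, 0.0526 and 0.0764). Of the embryo effects in this list, LDHA alone passed on its own. Cell or embryo, library protocol and the strength of overexpression cannot be told apart in this contrast.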

How the results depend on the processing

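Called members that held their call under every setting tried numbered 22 of 31 with OTX2 overexpression, 10 of 18 in the knockout, 27 of 33 with LEUTX overexpression, 0 of 2 in embryos, 28 of 34 between the overexpressing groups and 8 of 11 for the difference between embryos and pEPSCs. Leaving out each library in turn, the knockout had 3 to 9 members higher and 8 to 17 lower, and embryos had 0 to 3 higher and 0 to 3 lower. In 1 fit over the 12 pEPSC libraries 20 members were lower in the knockout, against 12. In embryos 2 members were higher with TPM as deposited and 2 were lower under median-ratio scaling, while the authors' deposited table had 4 lower. The difference between embryos and pEPSCs had 8 members lower under both median-ratio scaling and quantile normalization, against 5, and up to 9 higher without OTX2 embryo library 1. Over all genes, the embryo comparison had 1835 higher and 678 lower genes with TPM as deposited and 289 higher and 849 lower under median-ratio scaling, against 658 and 739. For the difference between embryos and pEPSCs median-ratio scaling gave 2227 higher and 2078 lower genes, against 3084 and 1570.

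Directions turned for few members. With OTX2 overexpression GAPDH was −0.41 under quantile normalization, and TKT was −0.0030 under median-ratio scaling. In the authors' deposited table OTX2 overexpression gave −0.13 for both TPI1 and ENO1 and −0.072 for TKT. With LEUTX overexpression TKT was −0.034 under median-ratio scaling and −0.065 in the authors' deposited table. The cause was not tested. Replicate numbers did not pair the libraries, since correlations of same-numbered deviations ran from −0.185 to 0.0708. With the replicate block 12 members were higher and 17 lower with OTX2 overexpression, 7 and 24 with LEUTX overexpression, 0 and 1 in embryos, and 5 and 4 for the difference between embryos and pEPSCs. With the block and without knockout libraries, 15 were higher and 23 lower in LEUTX-overexpressing against OTX2-overexpressing cells. No block was fitted for the knockout, whose column numbers differ from its titles. With 3 libraries a group and no read depth, small changes of genes at a few TPM are poorly resolved.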
